A study of Mus musculus with 42 samples.

Results

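Krüppel-like factors (Klf) are transcription factors that bind GC-rich and CACCC elements of DNA through zinc fingers at their carboxyl end. 10 of them, Klf2, Klf3, Klf4, Klf5, Klf6, Klf7, Klf9, Klf10, Klf11 and Klf13, were taken by gene name from a table of 21674 genes and followed across all libraries of the carotid intima and of cultured endothelium. The members were given by name, and each was found as 1 row of the table.

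In endothelium, Klf2 and Klf4 are the known flow-responsive members. Laminar shear stress raises both through a kinase cascade of Map3k3, Map2k5 and Mapk7 that ends in Mef2 factors, and the CCM proteins (Krit1, Ccm2, Pdcd10), with the receptor Heg1, restrain that cascade. Klf2 and Klf4 in turn raise vasoprotective genes such as Nos3 and Thbd and hold down adhesion genes such as Vcam1 and Sele. The other members have roles outside flow sensing: Klf3 is a repressor that recruits Ctbp proteins, Klf9 responds to glucocorticoid and thyroid hormone, Klf10 and Klf11 are induced by TGF-beta and act with Sin3 repressors, Klf6 is an early gene of vascular injury, Klf5 drives growth of smooth muscle, and Klf7 and Klf13 are broadly expressed.

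Intimal RNA was flushed from carotid arteries of wild-type male C57BL/6J mice aged 6 to 7 weeks, 48 hr after partial ligation of 1 carotid, which lowers and disturbs its flow. Each library was made from a pool of 3 to 5 flushes. The untreated set held 3 pools of the ligated low-flow artery, 3 of the contralateral artery, which carries high flow, and 3 of sham-operated arteries. In a treated set, mice were depleted of platelets with anti-GPIba, of neutrophils with anti-Gr1 or of macrophages with clodronate liposomes, or received control IgG or control PBS liposomes, with 2 low-flow pools for each and 2 high-flow pools for IgG and for PBS liposomes. The remaining set of pools was taken 7 d after ligation from mice of both sexes aged 2 to 7 months that carried loxP sites at both copies of Rbfox2, a splicing factor, and the Rosa26-mTmG reporter. EC-KO mice also had Cdh5(PAC)-CreERT2, an inducible Cre driven in endothelial cells, and controls were littermates without Cre. This set held 3 low-flow and 2 high-flow pools of each genotype. Cultured cells, kept without flow and each with 1 library, were an aortic endothelial line immortalized by TetOn-SV40 and grown with SV40 off, and primary endothelial cells held for 5 to 7 days, sorted on Cd31 and Icam2 for control and EC-KO and on eGFP for a further culture. The line is a single line, from mice with Cdh5(PAC)-CreERT2 and Rosa26-mTmG that had received tamoxifen. The eGFP-sorted cells carried the same Cre and reporter. The line was given no addition, 10% plasma, platelets and macrophages, or plasma together with both cells.

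Totals were 4064477 to 6794904 counts in the 9 untreated 48 hr pools, 12286104 to 19035957 in the 14 treated 48 hr pools, 10318685 to 18633538 in the 10 pools at 7 d, 13975153 to 16394043 in the 4 cultures of the line and 4989843 to 14556377 in the 3 primary cultures. Levels are given as FPKM, the fragments per kilobase of transcript scaled to the library total, which allows members to be compared within a library. The untreated pools, an unreplicated couple of liposome libraries and the eGFP-sorted culture were read at 100 bases and the others at 150, and the level of a gene is compared between groups only among libraries of 1 read length. No label says that pools of a group came from separate experiments, so p-values measure the spread between these pools. Where groups of pools are said not to overlap, the share of all genes that do so was not counted. Rbfox2 at low flow had 3.27, 5.73 and 2.74 FPKM in the 7 d controls and 1.09, 0.169 and 0.622 in EC-KO, and at high flow 3.66 and 3.84 against 0.791 and 1.05. The EC-KO pools were below the controls at both flows without overlap, yet the change in low flow did not pass the test (log2 fold-change -2.61 ± 0.58, SE, adjusted p = 0.692).

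The 11 endothelial marker genes summed to 5170 to 5350 FPKM in the untreated high-flow pools, 4510 to 5350 in the sham pools and 2530 to 3000 in the low-flow pools. The 14 macrophage markers went the other way, from 57.8 to 148 FPKM at high flow and 203 to 673 in sham pools to 2490 to 3860 at low flow. Smooth muscle markers summed to 322 to 384 FPKM at high flow and 1450 to 2700 at low flow. In the sorted primary cultures the same list summed to 1650 (eGFP-sorted), 2770 (EC-KO) and 3490 (control) FPKM. It therefore need not stand for smooth muscle cells. Neutrophil markers summed to 14.6 to 35.8 FPKM at high flow and 469 to 1140 at low flow, and fat cell markers to 106 to 1280 and 5.74 to 14.7. In these bulk libraries, fewer endothelial cells in a flush and less RNA of a gene per cell cannot be told apart. Every comparison of pools was therefore also fitted with libraries scaled to the endothelial markers in place of all genes, and the calls of members that this gained or lost are given with the result. This scaling takes the markers as unmoved by flow, yet Kdr is both a marker and in the list of genes that Klf2 and Klf4 are known to hold down. From high to low flow in the untreated pools the median gene was itself at -0.69 on the log2 FPKM scale. Endothelial scaling moved the median of the fitted log2 fold-changes there from -0.07 to 0.36.

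The promoters of the 3 members with the largest difference between low and high flow at 48 hr are shown for their motifs. They come from RefSeq on build GRCm38.p6, where 8 of the 10 members were matched (Klf5 and Klf10 were not), and each runs over the 250 bases before the transcription start. Capitals mark a match on either strand to the CACCC box (CACCC or GGGTG), to the MEF2 motif or to the CRE half-site (TGACG or CGTCA). Klf2 is at chr8:72318812-72319061 on the plus strand, Klf4 at chr4:55532476-55532725 on the minus strand and Klf9 at chr19:23140976-23141225 on the plus strand.
Klf2: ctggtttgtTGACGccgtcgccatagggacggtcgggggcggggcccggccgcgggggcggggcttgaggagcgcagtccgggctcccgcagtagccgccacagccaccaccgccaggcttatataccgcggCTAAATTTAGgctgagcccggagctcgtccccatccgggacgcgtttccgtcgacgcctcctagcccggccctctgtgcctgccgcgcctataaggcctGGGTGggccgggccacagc
Klf4: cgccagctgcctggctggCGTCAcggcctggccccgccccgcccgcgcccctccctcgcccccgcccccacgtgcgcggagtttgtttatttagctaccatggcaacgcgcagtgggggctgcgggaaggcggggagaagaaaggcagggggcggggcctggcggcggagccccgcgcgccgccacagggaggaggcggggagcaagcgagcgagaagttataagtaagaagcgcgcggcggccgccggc
Klf9: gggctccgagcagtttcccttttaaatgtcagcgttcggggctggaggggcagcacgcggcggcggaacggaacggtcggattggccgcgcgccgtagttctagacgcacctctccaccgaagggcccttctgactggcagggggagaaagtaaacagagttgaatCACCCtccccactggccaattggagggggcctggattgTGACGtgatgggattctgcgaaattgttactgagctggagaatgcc
The run of capitals CTAAATTTAG in Klf2, 118 to 109 bases before the start, matches the MEF2 motif, which 3.19% of all 32851 promoter windows of 300 bases hold and no other matched member did. The CRE half-site was in 5 of the 8 member windows (Klf2, Klf3, Klf4, Klf9 and Klf13) and in 20.8% of all windows. The CACCC box was in 5 of the 8 (Klf2, Klf3, Klf7, Klf9 and Klf13) and in 57.5% of all windows, with 5 matches in Klf3. The CArG box, held by 1.63% of all windows, was in none of the 8, and the windows of Klf6 and Klf11 held none of the 4 motifs. These matches describe letters in a window and are not binding sites.

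To see how the family responds to low flow at 48 hr, the untreated low-flow pools were compared with the contralateral high-flow pools. Of the 9 members that passed the filter on low counts, 7 were lower at low flow and 0 higher, where 46.2% of the 11236 genes tested differed and 22.6% were lower. The median log2 fold-change was -1.74 over the 9 members and -0.07 over all genes. Klf2 and Klf4 differed most, 19.5-fold and 18.5-fold lower on the fitted scale, followed by Klf9, Klf7, Klf10, Klf3 and Klf11. Only Klf6 and Klf13 were tested without passing, and Klf5 was too low to be tested.

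Klf2, at chr8:74842932-74845555 of mm9, had 59.2, 43.7 and 61.8 FPKM in the 3 high-flow pools, 33.6, 37.7 and 28.0 in the sham pools and 1.06, 0.539 and 4.09 in the low-flow pools. All low-flow pools lay far below all others, and the low-flow values rest on 4 to 39 counts. Its log2 fold-change to high flow was -4.28 ± 0.33 (SE, adjusted p = 4.97e-06) and stayed between -4.96 and -4.03 when any 1 pool was left out. Klf4, at chr4:55540013-55545347, the closest partner of Klf2 in endothelial flow responses, had 66.2, 55.1 and 56.6 FPKM at high flow and 1.22, 0.777 and 4.72 at low flow. Its change was of the same size, -4.21 ± 0.33 (adjusted p = 4.8e-06), and in both genes the low-flow pool c was the highest of the 3. That pool was also the highest of its group for Klf3, Klf6, Klf7, Klf9, Klf10, Klf11 and Klf13, and with it left out 7 members were called as before.

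Klf9, at chr19:23215716-23241401, came next. It had 46.1, 38.5 and 39.3 FPKM at high flow and 2.74, 2.02 and 11.8 at low flow, a log2 fold-change of -2.44 ± 0.33 (adjusted p = 0.000166). Klf7, at chr1:64076021-64168856, where the annotation also has antisense transcripts, had 167, 142 and 119 FPKM at high flow and 20.8, 13.4 and 54.9 at low flow, -1.74 ± 0.26 (adjusted p = 0.000373). The groups of both genes stood apart.

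The TGF-beta-induced pair differed in level but not in direction. Klf10, at chr15:38221219-38230464, had 89.2, 122 and 147 FPKM at high flow and 18.8, 17.5 and 31.0 at low flow, -1.74 ± 0.23 (adjusted p = 0.000163). Klf11, at chr12:25336236-25347639, was a low transcript with 1.71, 2.95 and 3.85 FPKM at high flow and 0.614, 0.587 and 1.01 at low flow, -1.29 ± 0.34 (adjusted p = 0.0103). With endothelial scaling Klf11 no longer passed (-0.86, adjusted p = 0.163), whereas the other 6 did. Klf3, the Ctbp-dependent repressor at chr5:65194628-65221368, had 28.3, 26.7 and 28.5 FPKM at high flow, a narrow range, and 5.14, 3.53 and 11.2 at low flow, -1.48 ± 0.2 (adjusted p = 0.000152).

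Klf6 and Klf13 were the most abundant members in these pools and changed least. Klf6, at chr13:5860735-5869639, had 212, 207 and 175 FPKM at high flow and 63.5, 88.5 and 169 at low flow, and Klf13, at chr7:71031237-71083801, had 153, 161 and 186 against 101, 96.2 and 109. The FPKM of both groups did not overlap, but the median gene was itself at -0.69 on the log2 FPKM scale and at -0.07 after scaling by TMM, the trimmed mean of M-values of edgeR. After TMM scaling the log2 fold-changes were -0.28 ± 0.28 for Klf6 (adjusted p = 0.43) and 0.06 ± 0.33 for Klf13 (adjusted p = 0.901). Klf5, at chr14:99697910-99712624, was listed at 0 in 8 of the 9 untreated pools and at 0.222 FPKM in low-flow pool c, which is under the 0.279 to 0.467 FPKM that 3 counts would give.

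**Figure D1:**
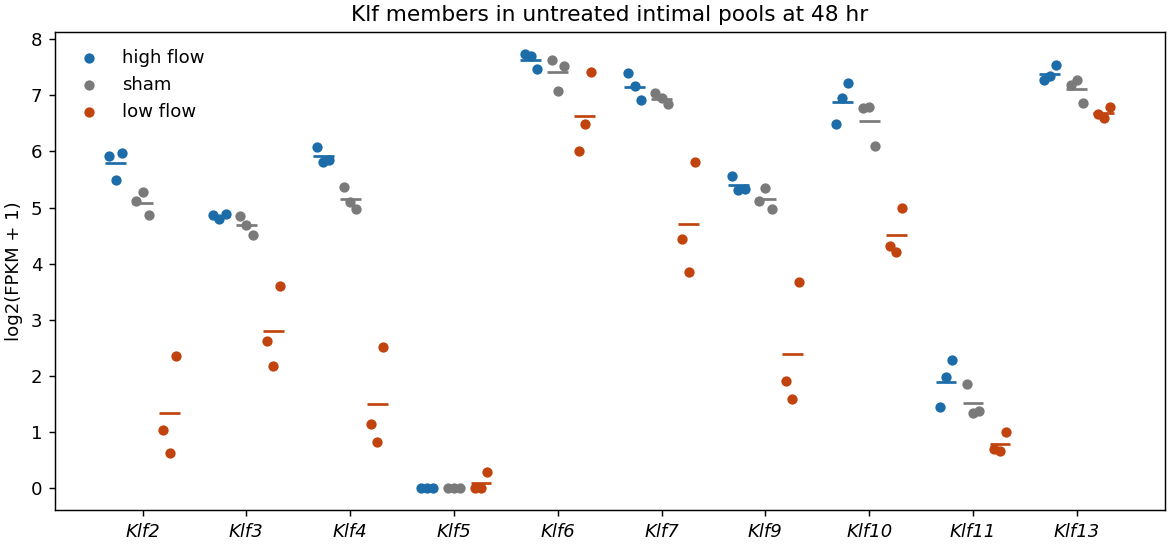
Level of each member in the untreated 48 hr pools, as log2(FPKM + 1) on the vertical axis, with 1 point per pool in blue for high flow, grey for sham and orange for low flow, and a line at the mean of the 3 log values. Klf2 and Klf4 drop from means of 54.9 and 59.3 FPKM at high flow to 1.9 and 2.24 at low flow, while Klf6 and Klf13 stay near the top in all 3 groups.

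Against sham arteries, 6 of the 9 members were lower at low flow (19.7% of all 11164 genes tested were lower). They were Klf2 (-3.52 ± 0.33, adjusted p = 0.00108), Klf4 (-3.4 ± 0.33, adjusted p = 0.00108), Klf9 (-2.15 ± 0.34), Klf7 (-1.47 ± 0.24), Klf10 (-1.37 ± 0.23) and Klf3 (-1.27 ± 0.2). Klf11 had -0.68 ± 0.32 and did not pass (adjusted p = 0.114). With endothelial scaling 5 of the 6 passed, and Klf3 did not (-0.93, adjusted p = 0.0719).

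High flow against sham gave 0 members and 0.0% of genes by edgeR, where 868 of 11030 genes reached p under 0.05 before adjustment. Without sham pool b edgeR called 78 genes, and DESeq2 on all pools called 101, among them Klf2 and Klf4. For Klf2 and Klf4 the 3 high-flow pools were all above the 3 sham pools, and the groups of the other 7 tested members overlapped. Klf4 had 40.1, 33.3 and 30.6 FPKM in the sham pools. The other 7 had log2 fold-changes from 0.22 for Klf3 to 0.61 for Klf11.

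Genes that act before or after these factors were read from lists of the pathway, which were chosen with earlier results of these data known. Genes given with values were picked by the smallest adjusted p of their list in this comparison. They describe it and are no test of it. Beside the list counts, 23.6% of all genes were higher and 22.6% lower. Of 11 upstream genes, 1 was higher at low flow, Ccm2 (0.85 ± 0.26, adjusted p = 0.0221), and 1 lower, Heg1 (-1.39 ± 0.33, adjusted p = 0.00603), while the kinases and the Mef2 factors did not pass. Of 9 tested genes that Klf2 or Klf4 are known to raise, 7 were lower and 1, the connexin Gja4, higher, with a list median of -1.63. Klk10, a kallikrein, averaged 2260 ± 227 FPKM (SD, n = 3) in high-flow pools and 15.3 ± 15.1 in low-flow pools (-6.78 ± 0.53, adjusted p = 4.93e-06), and the argininosuccinate synthase Ass1 had 464 ± 57.5 against 71.6 ± 40.5. Of 9 genes that these factors are known to hold down, 6 were higher and 1, the glycolytic Pfkfb3, lower, with a median of 2.49. Angpt2, a ligand that opposes Tek signalling, had 1.14 ± 0.395 FPKM at high flow and 144 ± 38.9 at low flow (7.73 ± 0.47, adjusted p = 2e-06), and the vasoconstrictor Edn1 96.9 ± 20.7 against 350 ± 218. Of 6 partners, the ubiquitin ligases Fbxw7 (-0.82) and Wwp1 (-0.75), both known to mark Klf proteins for degradation, were lower, and neither Ctbp nor Sin3 genes passed. Among 8 tested relatives of the family that are no members, Klf12 (-1.91), Sp4 (-1.54), Sp3 (-0.66) and Sp1 were lower and Klf16 (0.91) higher.

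In the treated mice the flow comparison was repeated within the IgG and the PBS liposome groups, with 7 groups of 2 pools fitted together. According to the names of the read files in the table, the low-flow pools of this set came from an earlier sequencing run than the high-flow pools, so flow and run cannot be told apart there. With IgG, 7 of the 10 members were lower (17.7% of 13401 genes were lower) and Klf5 was higher (22.8% of genes were higher). With PBS liposomes, 6 members were lower (15.5% of genes were lower). Of the 7 members lower in the untreated pools, all were lower with IgG and all but Klf7 with PBS liposomes. These counts depend on the scaling. Scaled to endothelial markers, IgG gave 4 members higher and 2 lower (9371 genes higher and 174 lower), and PBS liposomes 2 higher and 3 lower (6864 genes higher and 314 lower).

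Klf2 had 679 and 932 FPKM in the IgG high-flow pools and 105 and 23.2 in the IgG low-flow pools, a log2 fold-change of -3.75 ± 0.56 (adjusted p = 0.00114). With PBS liposomes it had 488 and 357 FPKM at high flow and 24.4 and 24.6 at low flow, -4.0 ± 0.56 (adjusted p = 0.000766). The groups were far apart in both, although the IgG low-flow pools differed from each other. Klf4 had 43.3 and 70.9 FPKM at high flow and 6.55 and 2.28 at low flow with IgG (-3.79 ± 0.6, adjusted p = 0.00144), and 27.7 and 19.6 against 2.48 and 2.19 with PBS liposomes (-3.23 ± 0.59, adjusted p = 0.00262). Klf2 at high flow thus stood above Klf4 in every pool of this set, and Klf2 and Klf4 kept their call with endothelial scaling, at -2.15 and -2.17 with IgG and at -2.84 and -2.07 with PBS liposomes.

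Among the members that were lower, the hormone-responsive and TGF-beta-induced ones were next in size. Klf10 had 177 and 150 FPKM at high flow and 27.6 and 27.7 at low flow with PBS liposomes (-2.45 ± 0.29, adjusted p = 0.000343), and 108 and 94.2 against 38.3 and 38.3 with IgG (-1.48 ± 0.28, adjusted p = 0.00302). Klf9 had 110 and 101 FPKM at high flow and 40.7 and 27.2 at low flow with IgG (-1.72 ± 0.4, adjusted p = 0.0068). Low-flow pools were below high-flow pools without overlap for both. Klf11 (-1.47 ± 0.33), Klf3 (-1.4 ± 0.24) and Klf7 (-0.79 ± 0.28, adjusted p = 0.0392) also passed with IgG. Scaling to endothelial markers moved the median of all genes from 0.07 to 1.74 with IgG and from 0.06 to 1.19 with PBS liposomes, and with IgG it left Klf3, Klf9, Klf10 and Klf11 uncalled at 0.25, -0.07, 0.19 and 0.22 and turned Klf7 to 0.86 (adjusted p = 0.0193). With PBS liposomes it left Klf3, Klf9 and Klf11 uncalled at -0.06, -0.67 and -0.4 and put Klf7, not called in either fit, at 0.56 in place of -0.58, while Klf10 kept its call at -1.31 (adjusted p = 0.00186). The endothelial marker sum was 6090 to 6350 FPKM at high flow and 2710 to 3000 at low flow with IgG, and the macrophage sum 58.3 to 237 against 2330 to 2510. The smooth muscle sum was 269 to 414 against 2670 to 2860 and the neutrophil sum 3.92 to 58.7 against 119 to 432. With PBS liposomes the endothelial sum was 4880 to 5610 against 2680 to 2900 and the macrophage sum 95.6 to 190 against 1380 to 2360. The smooth muscle sum there was 263 to 516 against 1830 to 3620. The part of these shifts in the change of these members was not tested.

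Klf5 had 0 and 3 counts in the IgG high-flow pools and 38 and 20 in the low-flow pools (1.46 and 0.664 FPKM), a fitted log2 fold-change of 3.69 ± 1.16 (adjusted p = 0.0264) that rests on those few counts. With PBS liposomes it had 0.457 and 0.988 FPKM at high flow against 0.376 and 0.923, and the groups overlapped. Klf6 did not pass with IgG (-0.04) or PBS liposomes (0.11), nor did Klf13 (-0.22 and 0.27), and their groups overlapped. With endothelial scaling both were called higher at low flow, Klf6 at 1.64 (adjusted p = 0.00355) with IgG and 1.2 (adjusted p = 0.0248) with PBS liposomes and Klf13 at 1.44 (adjusted p = 0.000466) and 1.41 (adjusted p = 0.0013). Without IgG low-flow replicate 2, 5 members were called with IgG in place of 8.

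**Figure D2:**
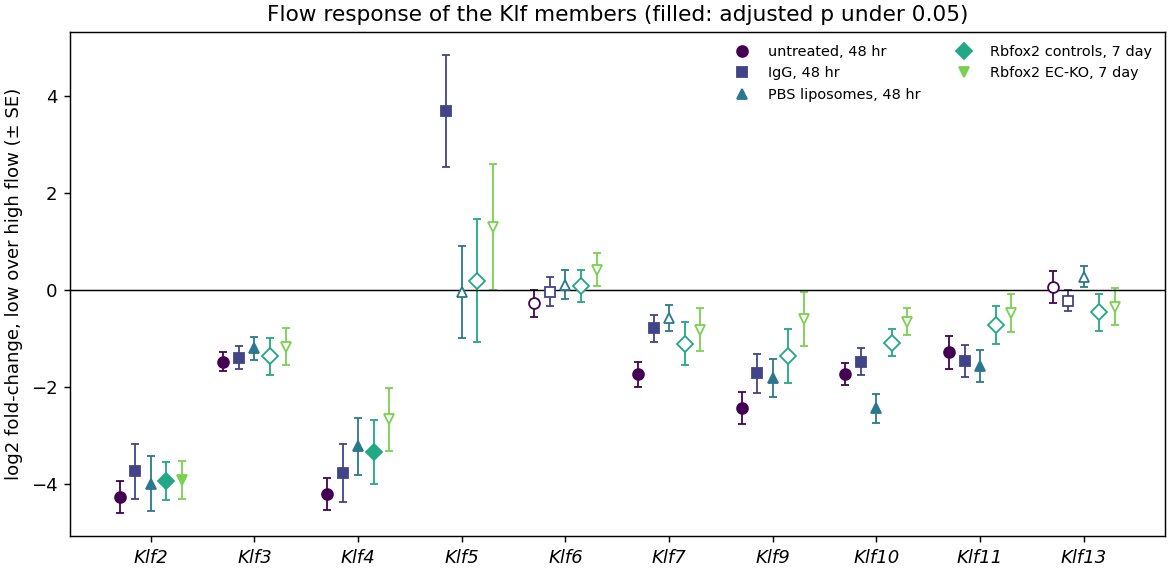
Log2 fold-change of low over high flow, with its standard error as a bar, for each member in 5 settings, namely untreated, IgG and PBS liposome pools at 48 hr and control and EC-KO pools at 7 d; filled points have an adjusted p under 0.05. Klf2 lies between -4.28 and -3.75 in all 5 and is called in each (in 7 d controls not when those 2 groups are fitted alone), while Klf6 and Klf13 lie between -0.46 and 0.42; with endothelial scaling only Klf2 and Klf4 stay below 0 in all 5, and Klf6 and Klf13 are above 0 in all 5.

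Platelet depletion left Klf2 low and was accompanied by higher levels of other members. Against IgG at low flow, 3 of 10 members were higher with anti-GPIba, Klf9, Klf11 and Klf3 (6.05% of 13401 genes were higher), and 0 lower. Klf9 had 125 and 120 FPKM with anti-GPIba and 40.7 and 27.2 with IgG, 1.83 ± 0.4 (adjusted p = 0.024). The IgG high-flow pools, which came from a later sequencing run, had 110 and 101 FPKM of it. Klf11 had 8.27 and 13 FPKM against 4.64 and 5.11 (1.09 ± 0.33, adjusted p = 0.0441). Klf3 had 91.2 and 94.4 FPKM against 60.8 and 43.6 (0.8 ± 0.23, adjusted p = 0.0415), a value that endothelial scaling turned to -0.10. For these 3 genes the anti-GPIba and IgG pools did not overlap. The sum of the 8 platelet markers was 16.2 and 31.6 FPKM with anti-GPIba and 48.2 and 42.6 with IgG, so platelet RNA was still detected.

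Klf2 did not follow them. It had 70.3 and 70.9 FPKM with anti-GPIba, between the 105 and 23.2 of the IgG pools, a log2 fold-change of 0.12 ± 0.5 (adjusted p = 0.879). Leaving out single pools moved it from -0.58 to 1.57. Klf4 had 9.16 and 14.6 FPKM, above both IgG pools (6.55 and 2.28), without passing (1.41 ± 0.55, adjusted p = 0.0928). Klf7 had 111 and 108 FPKM against 71.1 and 48.6 (0.85 ± 0.28, adjusted p = 0.0552), and Klf10, Klf13 and Klf6 were above IgG in both pools at 0.59, 0.51 and 0.13, also without passing. Endothelial scaling put Klf2, Klf6, Klf7, Klf10 and Klf13 below IgG, at -0.72, -0.79, -0.05, -0.33 and -0.40, none of them called.

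These calls were not firm. With any 1 of the 4 pools left out, 0 members were called and the number of genes called fell from 2216 to between 1 and 89, with the adjusted p of Klf9 at 0.0515 to 0.191. DESeq2 called 5 members, with a count over all genes that is not given here. Endothelial scaling, which moved the median of all genes from -0.04 to -0.96, left Klf9 alone (0.94, adjusted p = 0.0409). With that scaling 106 genes were higher and 6033 lower. The macrophage marker sum was 170 to 270 FPKM with anti-GPIba and 2330 to 2510 with IgG, 10 of its 14 genes were lower, and the smooth muscle sum was 426 to 600 against 2670 to 2860. The endothelial sum was 4580 to 4690 FPKM against 2710 to 3000. The neutrophil sum was 7.07 to 16.5 FPKM against 119 to 432 and the fibroblast sum 223 to 485 against 92.8 to 111. The part of these shifts in the change of Klf9, Klf11 and Klf3 was not tested. Klf15, a glucocorticoid-induced relative that is no member and was picked after its values were seen, had 110 and 92.3 FPKM with anti-GPIba and 14.9 and 15 with IgG (2.72 ± 0.57, adjusted p = 0.0221). Among the genes known to be held down by Klf2 and Klf4, 3 of 9 were lower with anti-GPIba, among them Angpt2 (-4.1) and Ccl2, and 1, Pfkfb3, higher, where 10.5% of all genes were lower and 6.05% higher. Of 10 tested genes that they raise, 1, Aqp1 (1.4), was higher and 0 lower.

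After neutrophil or macrophage depletion no member passed the test against its control at low flow. Anti-Gr1 against IgG gave 0 members and 0.0% of genes by edgeR, where 2432 genes reached p under 0.05 before adjustment, and 142 genes by DESeq2. Klf2 had 67.9 and 47.9 FPKM with anti-Gr1 (-0.13 ± 0.5, adjusted p = 0.901), within the IgG range. Klf9 had 68.7 and 49.9 FPKM, above both IgG pools (0.82 ± 0.39, adjusted p = 0.29). Clodronate against PBS liposomes gave 16 genes, or 0.119%, and 0 members, where 2002 genes reached p under 0.05 before adjustment. DESeq2 called 2 members, with a count over all genes that is not given here. Klf9 had 69.9 and 27.8 FPKM with clodronate and 24.2 and 13.6 with PBS liposomes (1.25 ± 0.39, adjusted p = 0.23), Klf10 76.3 and 41.4 against 27.6 and 27.7 (0.98 ± 0.28, adjusted p = 0.199), and Klf2 56.3 and 40.7 against 24.4 and 24.6 (0.88 ± 0.51, adjusted p = 0.423). Both clodronate pools were above both PBS pools for these 3 genes and for Klf3, Klf4, Klf7, Klf11 and Klf13, with replicate 1 the higher of the 2. The share of all genes that separate in this way was not counted, and none of these members passed by edgeR. Endothelial scaling put Klf3, Klf7 and Klf13 below PBS liposomes, at -0.21, -0.18 and -0.34. The endothelial sum was 3490 to 4610 FPKM with clodronate and 2680 to 2900 with PBS liposomes, the macrophage sum 224 to 240 against 1380 to 2360 and the neutrophil sum 54.1 to 65.6 against 159 to 469. With anti-Gr1 the macrophage sum was 1030 to 1210 FPKM against 2330 to 2510 with IgG, and the neutrophil sum 17.0 to 41.5 against 119 to 432. The part of these shifts was not tested. Without clodronate replicate 2, 937 genes and 2 members were called.

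A separate couple of low-flow libraries at 100 bases, 1 with clodronate and 1 with PBS liposomes, had no replicate, and its intervals cover counting error only. Klf9 had 16.8 FPKM with clodronate and 7.55 without, a log2 ratio of 1.16 (95% interval 0.85 to 1.47), Klf4 9.52 against 4.36 (1.13, 0.71 to 1.56) and Klf11 2.21 against 1.1 (1.01, 0.26 to 1.8). These 3 of 9 members with enough counts were 2-fold or more higher, where 11.9% of genes differed 2-fold in either direction (552 of 11674 higher), and with endothelial scaling 0 were. Klf2 had 8.72 against 4.81 FPKM (0.86, 0.31 to 1.43). The macrophage sum was 227 FPKM with clodronate and 1750 without, the neutrophil sum 231 against 802 and the endothelial sum 3780 against 2900, and their part was not tested.

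To ask which members stayed low when a cell type was depleted, the depleted low-flow pools were also set against the high-flow pools of their control treatment. These comparisons share controls with those above, and their values are given side by side. The high-flow pools came from a later sequencing run than the low-flow pools, so flow and run cannot be told apart here either. Counts over all genes with a pool left out are not given here. With anti-GPIba, Klf2 (-3.63 ± 0.55, adjusted p = 0.0119) and Klf4 (-2.38 ± 0.56, adjusted p = 0.0315) were lower than at IgG high flow (4.41% of genes were lower), while Klf9 was at 0.11 ± 0.39 and Klf3 at -0.6 ± 0.23 (adjusted p = 0.127). With anti-Gr1, Klf2 (-3.88 ± 0.56), Klf4 (-3.32 ± 0.59), Klf3 (-1.2 ± 0.24) and Klf10 (-1.14 ± 0.28) were lower (5.66% of genes) and Klf5 higher, on the same 3 counts at high flow (7.42% of genes). With clodronate, Klf2 (-3.12 ± 0.54, adjusted p = 0.00806), Klf4 (-2.05 ± 0.56, adjusted p = 0.0498) and Klf10 (-1.48 ± 0.28, adjusted p = 0.0121) were lower than at PBS high flow (2.8% of genes). Klf2 and Klf4 thus were called in each of the 3 depletions. With endothelial scaling Klf2 was called in all 3 and Klf4 in all but clodronate (-1.64, adjusted p = 0.0573), Klf3 and Klf10 with anti-Gr1 were uncalled at -0.17 and -0.14, and Klf13 was called higher in all 3 (1.05, 0.82 and 1.07), Klf6 and Klf7 with anti-Gr1 (1.15 and 0.84) and Klf5 with both antibodies. With anti-GPIba the call depended on each pool, since 0 members passed without either anti-GPIba pool or IgG high-flow replicate 1 and 1 without IgG high-flow replicate 2. With anti-Gr1, 3 members passed without anti-Gr1 replicate 1 and 2 without IgG high-flow replicate 1. With clodronate, 5 passed without clodronate replicate 1 and 0 without clodronate replicate 2 or PBS high-flow replicate 1.

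**Figure D3:**
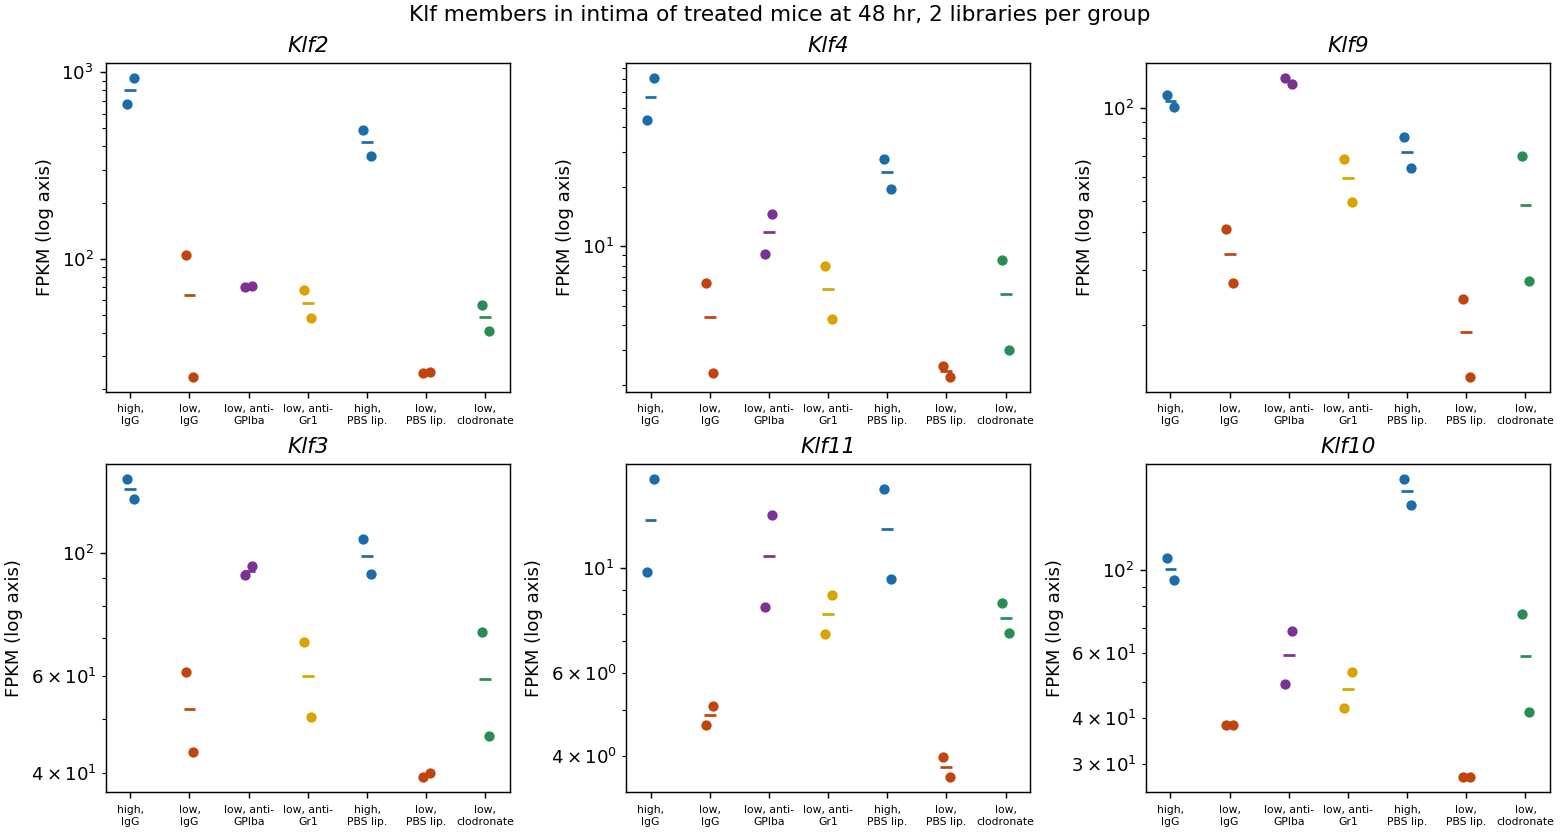
FPKM of Klf2, Klf4, Klf9, Klf3, Klf11 and Klf10 on a log axis in the treated 48 hr pools, with 1 point per pool and a line at the mean of 2, by treatment and flow. Klf9 with anti-GPIba (125 and 120 FPKM) reaches the level of the IgG high-flow pools, which came from a later sequencing run. Klf2 (70.3 and 70.9) stays below its 679 and 932 there. The Klf3 difference between anti-GPIba and IgG turns to -0.10 with endothelial scaling.

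At 7 d, low flow was compared with high flow in control and EC-KO mice, with 4 groups fitted together. In controls, Klf2 and Klf4 were lower and no member was higher (1.44% of 13352 genes were lower), and in EC-KO mice Klf2 alone was lower (0.741% of genes). Klf2 in controls had 903 and 447 FPKM at high flow and 69.0, 41.1 and 29.4 at low flow (-3.95 ± 0.39, adjusted p = 0.00396), and in EC-KO 1140 and 696 against 62.1, 58.9 and 59.9 (-3.93 ± 0.39, adjusted p = 0.00548). The low-flow pools of both genotypes lay far below every high-flow pool. With the 2 control groups fitted alone neither Klf2 (-3.95, adjusted p = 0.136) nor Klf4 (-3.36, adjusted p = 0.216) passed, and with the 2 EC-KO groups alone both did. Klf4 in controls had 53.4 and 29.5 FPKM at high flow and 9.48, 2.2 and 1.2 at low flow (-3.35 ± 0.67, adjusted p = 0.04), and in EC-KO 65.2 and 50.7 against 11.3, 8.59 and 7.58 (-2.67 ± 0.65, adjusted p = 0.0942). The EC-KO low-flow pools of Klf4 were closer to each other than the control pools, of which replicate 1 was the highest. With endothelial scaling, which moved the median of all genes from 0.04 to 1.34 in controls, Klf2 (-2.77, adjusted p = 0.0147) and Klf4 (-2.41, adjusted p = 0.0147) were still lower and Klf6 was higher (1.33, adjusted p = 0.0161), while Klf10, Klf11 and Klf13 went from -1.09, -0.73 and -0.46 to 0.12, 0.44 and 0.73 without a call. In EC-KO, where it moved the median from 0.01 to 0.94, Klf2 kept its call (-3.0, adjusted p = 0.0139) and Klf7, Klf9, Klf10, Klf11 and Klf13, not called in either fit, turned positive. The endothelial sum was 5980 to 5990 FPKM at high and 2560 to 4030 at low flow in controls, and 6170 to 6390 against 3300 to 3610 in EC-KO. The macrophage sum was 46.2 to 115 FPKM at high and 291 to 1490 at low flow in controls, and 69.2 to 81.9 against 611 to 1390 in EC-KO, and the smooth muscle sum was 139 to 194 against 642 to 1090 over both genotypes. Their part in the change of the members was not tested. In controls 1 member passed when any pool other than low-flow replicate 1 was left out, and in EC-KO 0 passed without high-flow replicate 4.

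Low-flow replicate 1 of either genotype came from an earlier sequencing run than the other 7 d pools, by the names of its read files. In the control group that pool had 70.4 FPKM of Klf3 against 29.1 and 33.5 in the other low-flow pools, 74.5 of Klf7 against 29.6 and 23.1, and 56.7 of Klf9 against 11.4 and 16.9. Its endothelial marker sum was 4030 FPKM against 2560 and 2570. Without it, 3897 genes and 7 members were called in controls in place of 320 and 2, among them Klf9 (-2.34, adjusted p = 0.00186), Klf3 (-1.84), Klf7 (-1.77) and Klf10 (-1.4). Without replicate 1 of both genotypes, 3840 genes and 8 members were called in controls, and 1100 genes and 5 members (Klf2, Klf4, Klf3, Klf7 and Klf9) in EC-KO in place of 146 and 1. With every pool, Klf3 (-1.37 ± 0.38, adjusted p = 0.0704), Klf10 (-1.09 ± 0.28, adjusted p = 0.0615) and Klf9 (-1.37 ± 0.56, adjusted p = 0.166) did not pass in controls although their flow groups did not overlap. The high-flow arteries are the contralateral arteries of ligated mice, but no source used here says that equally numbered pools hold the same mice. With the pool number as a block, 7 members passed in controls, Klf3, Klf9 and Klf10 among them (-1.8, -2.15 and -1.21), and 5 in EC-KO. Number 1 has no high-flow pool, so this block also takes low-flow replicate 1 out of a direct comparison with high flow. Both changes were made at once and cannot be told apart, and the count over all genes with the block is not given here.

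Endothelial deletion of Rbfox2 was compared with control at the same flow to ask whether it alters the members. At low flow 0 members and 0.0% of genes passed by edgeR, 880 genes reached p under 0.05 before adjustment, and DESeq2 called 11. Klf4 was at 1.13 ± 0.6, Klf9 at 0.96 ± 0.52 and Klf6 at 0.68 ± 0.3 (adjusted p = 0.692 for each), and all 10 members overlapped between the genotypes. Klf9 had 77.1, 45.8 and 36.7 FPKM in EC-KO and 56.7, 11.4 and 16.9 in controls, where control replicate 1 alone reached the EC-KO range. Pools of equal number went together here, and within each of the 3 pairs Klf3, Klf4, Klf6, Klf7, Klf9 and Klf13 had the higher FPKM in EC-KO. The share of all genes that did so was not counted, and no source used here says what an equal number shares. With the number as a block, 0 members and 0 genes passed, with Klf4 at 1.59 ± 0.39 (adjusted p = 0.409) and Klf9 at 1.22 ± 0.27 (adjusted p = 0.398). With control replicate 1 left out, 1476 genes and 3 members were called. The 3 were higher in EC-KO, namely Klf4 (2.43, adjusted p = 0.0105), Klf9 (1.92, adjusted p = 0.0151) and Klf7 (1.2, adjusted p = 0.0371). Without replicate 1 of both genotypes 374 genes were called, with Klf4 (2.25) and Klf9 (1.56) among them. At high flow 1 gene, or 0.00749%, and 0 members passed, 293 genes reached p under 0.05 before adjustment, and Klf2 was at 0.4 ± 0.41. The test of a different flow response between genotypes passed for 0 members and 0.0% of genes, where 538 reached p under 0.05 before adjustment and DESeq2 called 21, with Klf2 at 0.02 ± 0.53, Klf4 at 0.69 ± 0.93 and Klf9 at 0.77 ± 0.81. The macrophage sum at low flow was 291, 1490 and 323 FPKM in controls and 611, 1390 and 1030 in EC-KO, which overlap. The sum of the 6 fibroblast markers was 405, 208 and 98.9 FPKM in controls and 471, 1730 and 454 in EC-KO, without overlap, and 0 of the 6 genes passed. The part of either in these values was not tested.

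Of the genes known to be raised by Klf2 or Klf4, 4 of 10 were lower at low flow in the 7 d controls (1.44% of all genes were), Klk10 (-5.65), Ass1 (-2.41), Slc9a3r2 (-2.0) and Nos3, and 3 in EC-KO (0.741% of genes), Klk10, Ass1 and Nos3. Of the 9 genes they hold down, Angpt2 (3.45) was higher in controls (0.959% of all genes were) and Angpt2 and Edn1 in EC-KO (0.352% of genes).

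**Figure D4:**
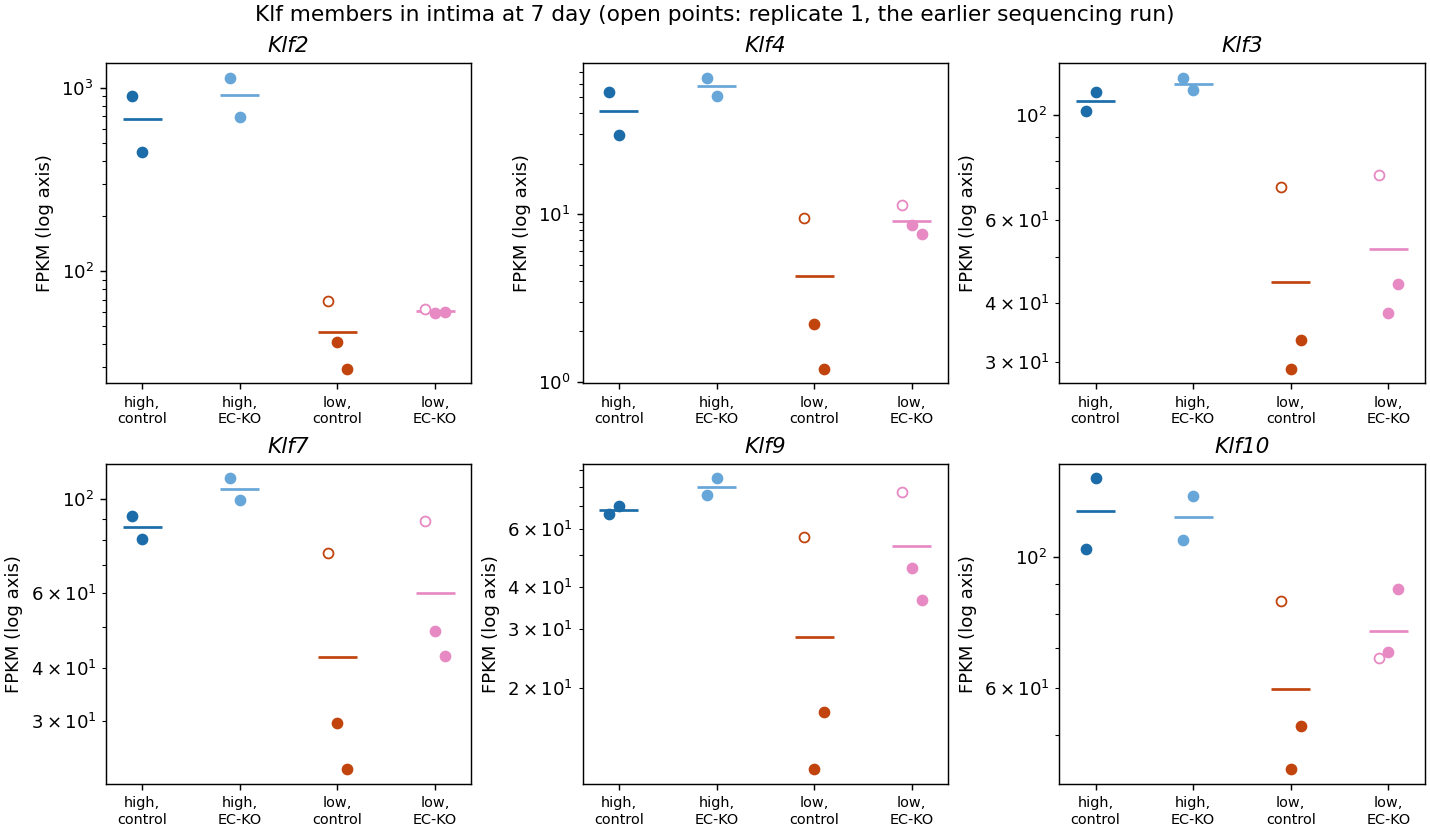
FPKM of Klf2, Klf4, Klf3, Klf7, Klf9 and Klf10 on a log axis in the 7 d pools by genotype and flow, with 1 point per pool, an open point for replicate 1 of the earlier run and a line at the mean. The open control point at low flow lies above the other low-flow controls in each panel, for example at 56.7 FPKM against 11.4 and 16.9 for Klf9, and Klf2 is at 29.4 to 69.0 FPKM at low flow against 447 to 1140 at high flow.

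In the cultured aortic line, which is kept without flow, each condition had 1 library, and the conditions were compared without a test. Its endothelial identity was partial by the markers, with Pecam1 at 55 FPKM but Cdh5 at 2.17, Kdr at 0.309, Vwf at 0.771 and Cldn5 at 0.161 without addition. Scaled to library totals, Klf10 was the member that moved most with each addition, with 39.9 FPKM without addition, 92.0 with plasma (log2 ratio 1.21, 95% interval 1.12 to 1.29), 65.4 with platelets and macrophages (0.71, 0.62 to 0.8) and 80.7 with all 3 (1.02, 0.93 to 1.1). It was the 1 member of 10 that changed 2-fold with plasma and with all 3, and 0 did with platelets and macrophages, where 13.9%, 23.1% and 13.1% of genes did. With endothelial scaling the ratio of Klf10 with plasma was 0.99 and 0 members reached 2-fold there, and with platelets and macrophages Klf4 (-0.88) moved more than Klf10 (0.52). Klf9 was at 8.93 FPKM without addition, 17.4 with plasma (0.96, 0.78 to 1.14), 8.84 with the cells and 12.2 with all. Klf2 was highest without addition, at 17.7 FPKM against 11.4, 13.2 and 10.8, a log2 ratio of -0.63 (-0.86 to -0.41) with plasma and -0.71 (-0.93 to -0.49) with all. Klf4 was at 9.08 FPKM without addition and 6.98, 5.64 and 7.76 with plasma, cells and all. Klf5 had 2.44 to 3.38 FPKM in the 4 cultures. Since the additions bring RNA of their own and the macrophage sum was 16.3 FPKM without addition and 404 with platelets and macrophages, the levels are those of the mixed culture.

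In primary endothelium, the control culture had 9.33 FPKM of Rbfox2 and the EC-KO culture 0.675. Klf2 was lower in EC-KO, at 30.8 FPKM, than in control (log2 ratio -0.7, 95% interval -0.85 to -0.55) and so was Klf4, at 4.1 against 6.37 (-0.64, -0.96 to -0.32). Klf3 was at 45.4 and 45.5 FPKM and Klf6, the highest member in both, at 111 and 92.6. The 1 member with a 2-fold difference was Klf5, with 17 counts in control and 2 in EC-KO (-2.54, -5.69 to -0.46), where 12.3% of genes differed 2-fold. The macrophage sum was 332 FPKM in control and 2.01 in EC-KO, although both cultures had been sorted for Cd31 and Icam2, and the part of this difference was not tested. The eGFP-sorted culture, read at 100 bases and not compared, had 9.23 FPKM of Klf2 and 12.8 of Klf4.

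The order of the members within a library changed with flow. In the 150-base pools Klf2 was first at high flow, at a mean of 806 FPKM with IgG, 422 with PBS liposomes, 675 in 7 d controls and 917 in EC-KO, and its range did not overlap that of the next member. It made up 53.9% of the summed FPKM of the 10 members at high flow with IgG, 41.6% with PBS liposomes, 54.0% in 7 d controls and 58.5% in EC-KO. At low flow Klf6 was first, at 153 FPKM with IgG, 116 with PBS liposomes and 90.2 in 7 d controls, and the share of Klf2 was 13.4% (6.4% and 20.3% in the 2 pools), 8.13% and 13.6%. With anti-GPIba Klf6 was first and Klf9 second, at 123 FPKM. In the untreated pools read at 100 bases Klf6 and Klf13 were first in every group, with means of 198 and 167 FPKM at high flow, 171 and 138 in sham and 107 and 102 at low flow, and their ranges overlapped. There Klf4 and Klf2 were the fifth and the sixth at high flow, at 59.3 and 54.9 FPKM, with overlapping ranges, and the seventh and the eighth at low flow. The summed FPKM of the 10 members was 813 at high flow, 655 in sham and 278 at low flow in the untreated pools, and 1490 against 440 with IgG. From high to low flow the median gene was itself at -0.69 on the log2 FPKM scale in the untreated pools and at 0.1 with IgG.

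To describe which transcripts vary like Klf2 and Klf4, log2(FPKM + 1) was correlated over the 33 carotid libraries among 11361 genes with a mean of at least 1 FPKM. The libraries share runs, read lengths and cell composition, and the values are descriptions. The 5 genes most like Klf2 were Slc9a3r2 (r = 0.963), Podxl (0.96), Kank3 (0.959), Dll1 (0.959) and BC020535 (0.957). Those most like Klf4 were Mgll (0.958), Col4a4 (0.955), Epas1 (0.954), Pthlh (0.953) and Tspan11 (0.949). Klf2 and Klf4 correlated at 0.706 over all 33, and at 0.957 over the 24 libraries of 150 bases, a subset chosen after the data were seen. The pools of 100 and 150 bases differ in scale, which enters the values over all 33. Over the 24, the 5 genes most like Klf2 were Prrt4 (0.978), Nxnl2 (0.967), Pthlh (0.966), Dll1 (0.965) and Fgfr3 (0.963), and those most like Klf4 were Ptprj (0.963), Epas1 (0.96), Sorbs3 (0.959), Klf2 itself and Nxnl2 (0.953), so Dll1 and Epas1 alone were in both lists of their member. Over those 24, Klf4 was the seventh gene of 11359 in likeness to Klf2 and Klf2 the fourth in likeness to Klf4. Among the other members, Klf2 went with Klf3 at 0.9 and with Klf6 at 0.01 over the 33 libraries, and Klf7 with Klf9 at 0.79.

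**Figure D5:**
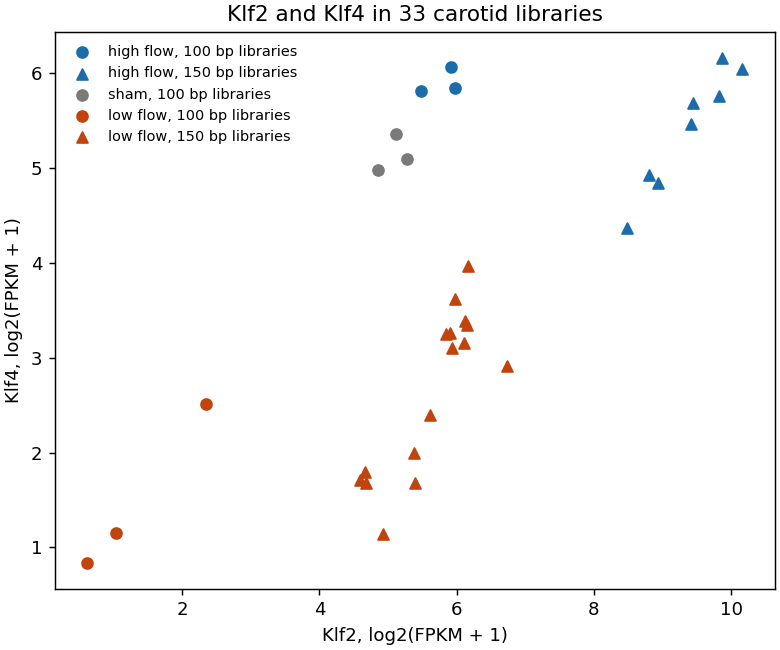
Klf4 against Klf2, both as log2(FPKM + 1), in the 33 carotid libraries, with circles for pools read at 100 bases and triangles for 150 bases, coloured by flow. The pools of each read length form a line of their own, with high flow at the upper end and low flow at the lower, and positions are to be compared only among points of 1 shape.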

How the data were processed

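The authors isolated poly(A) RNA and quantified genes of an mm9 annotation by RSEM. The submitters' processing notes name RSEM 1.2.15 and STAR 2.5.1b. For the untreated 48 hr low-flow and high-flow pools a figure legend of the paper says that DESeq2 was run after STAR alignment. The methods also name TopHat on trimmed reads for the untreated pools. The deposited values are RSEM estimated counts (expected counts), without normalization and with 5.2% to 19.32% of a library's values fractional, and, for some libraries, RPKM deposited by the authors, which were used only as an alternative scale. The table has 204 columns of values, of which 73 entered and 131 did not, because they match no sample here or are further runs and scales that no label ties to a single pool. 1 of 21675 entries, without usable values, was left out. Reads shared between similar genes were divided by RSEM, and the strand setting of that counting is not given in the sources used here, although the TopHat mapping of the untreated pools is described as first-strand.

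From the counts, FPKM were computed with the deposited effective lengths, and their median ratio to the deposited RPKM was 0.9331 to 1.0394. The first of 2 runs was used for the untreated pools, and the repeat run of 2 pools at 7 d that were sequenced again. Counts were rounded and fitted with edgeR 4.0.16 in R 4.3.3 (default filter on low counts, TMM scaling, quasi-likelihood test, Benjamini-Hochberg adjustment over all genes tested, threshold 0.05), for the untreated pools 2 groups at a time and otherwise with all groups of a set. Errors of log2 fold-changes are standard errors. DESeq2 1.42.0, other scalings, filters and left-out libraries were alternatives. Single libraries were compared without a test, with 95% Poisson intervals over genes with at least 10 counts, and intervals and floors of 3 counts cover counting error only. Other steps used scipy 1.17.1, numpy 2.4.6 and pandas 2.3.3 under Python 3.11.15. The fits were tested on simulated data.

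The 10 members, the 5 nearest genes of Klf2 and of Klf4, and pathway and marker lists form the genes named. Members and lists were chosen with earlier results of these data known. At 7 d the equal numbers of EC-KO and control low-flow pools went together (correlations of deviations 0.56, 0.21 and 0.41 for 3 pairs), and a replicate block for this comparison gave 0 calls, as without it. In the other comparisons, which share 2 numbers each, these correlations were -0.06 to 0.59 (0.53 for flow with PBS liposomes), and no source used here says what an equal number shares. Promoters are RefSeq windows on GRCm38.p6, used for sequence only, and coordinates of genes are those of mm9.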

Additional observations from a re-analysis of the deposited data

How the results depend on the processing

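Of 157 log2 fold-changes of members, 43 passed the threshold and 18 of these did so under every alternative run. Scaling to endothelial markers changed the sign of 46 of the 157, of which 9 passed in at least 1 of the fits. With IgG, low over high flow became 0.25 for Klf3, 1.64 for Klf6, 0.86 for Klf7, 0.19 for Klf10, 0.22 for Klf11 and 1.44 for Klf13. Anti-GPIba over IgG became -0.10 for Klf3, and anti-Gr1 low flow over IgG high flow 0.84 for Klf7 and 0.82 for Klf13. The cause was not tested. Counts of members called moved as follows, and the counts over all genes in these fits, which can move as well, are not all given here. DESeq2 gave 2 for high flow against sham, 5 for anti-GPIba against IgG, 2 for clodronate against PBS liposomes, 4 for flow in 7 d controls and 2 in EC-KO. Endothelial scaling gave 1 for anti-GPIba against IgG and 4 for anti-GPIba low flow against IgG high flow, and 0 for the line with plasma and for the 100-base clodronate library. A fit of the 2 groups alone gave 4 for anti-GPIba low flow and 2 for anti-Gr1 low flow against IgG high flow, 0 for clodronate low flow against PBS high flow, 0 for flow in 7 d controls and 2 in EC-KO. Leaving out 1 library gave 5 to 7 for flow with IgG, 0 to 0 for anti-GPIba against IgG, 0 to 2 for clodronate against PBS liposomes, 0 to 1 for anti-GPIba low flow and 2 to 4 for anti-Gr1 low flow against IgG high flow, 0 to 5 for clodronate low flow against PBS high flow, 1 to 7 for flow in 7 d controls, 0 to 1 in EC-KO and 0 to 3 for EC-KO against control at low flow. Without both low-flow libraries of the earlier run, an alternative chosen after seeing the data, flow gave 8 in controls and 5 in EC-KO, and EC-KO against control at low flow 2. With the replicate block, flow in 7 d controls gave 7 and in EC-KO 5, where correlations of deviations were -0.06 to 0.26. Number 1 has no high-flow pool, so this block also takes low-flow replicate 1 out of a direct comparison with high flow. The block changed no other count of members by over 1.5 times. For the untreated 48 hr pools alone, no paired analysis was possible because their columns carry letters that match no replicate number. Depth limits Klf5, which was at or under 3 counts in the untreated pools. Of 20 mean levels compared with the deposited RPKM, 17 were within 1 SD. Alternatives planned with the second run of the untreated pools, with both runs summed and with all runs at 7 d summed were not run, because no label ties those columns to single pools, and RPKM were compared for the treated IgG pools alone.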
